A study of Drosophila melanogaster with 24 samples.

Results

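The sex difference in gene expression of the Drosophila melanogaster genital disc was compared between the wandering larva and the prepupa. For each probe set, the female minus male difference at L3 was subtracted from the female minus male difference at P6, a quantity called the sex by stage interaction below. A positive interaction means that the difference shifted toward females between the stages, and a negative one that it shifted toward males. It equals the stage change in females minus the stage change in males. All probe sets annotated with 1 gene entered, 13647 in number, which stand for 11982 of the 12549 genes that any probe set names.

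The contrast used 16 of the 24 arrays, in 4 groups of 4 biological replicates, L3 females, L3 males, P6 females and P6 males (n = 4 arrays per group throughout). L3 discs were taken from wandering larvae of the third instar, and P6 discs from prepupae whose puparial air bubble was at its widest, near 6 h after puparium formation (APF). Pupal discs of about 20 h APF, P20, were measured in both sexes as well and were used here to follow genes onward. Their arrays also entered the estimate of replicate spread behind each test, which was fitted to all 24 arrays. All groups carried esgGAL4.B, UAS-GFP.nls/CyO, which marks imaginal discs with GFP for dissection, and no group without this genotype was measured. Flies were reared at 25 C. The sources used here do not say how many discs made up a sample. The discs were measured in bulk, so fewer cells of a type and less RNA per cell cannot be told apart.

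The genital disc holds a female primordium, a male primordium and an anal primordium. In each sex, 1 of the genital primordia grows and the other stays small, and the anal primordium takes a sex-specific form. The splicing cascade that ends in doublesex (dsx), which encodes a male and a female transcription factor, sets these choices together with the segmental identity gene Abd-B. At the onset of metamorphosis a pulse of ecdysone starts eversion of the disc, and the precursors of bristles and of the internal ducts and glands are laid down.

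Values are log2 RMA signals (robust multi-array average), in which a difference of 1 is 2-fold, and they ran from 2.04 to 14.04 in these 16 arrays. Array medians lay between 5.93 and 6.38, and replicates correlated at 0.966 to 0.994. The median SD over probe sets was 0.245 in L3 females, 0.247 in L3 males, 0.146 in P6 females and 0.182 in P6 males, so the L3 side of the contrast carried the larger replicate error. Disc markers were measured in every group, with means of 9.31 to 10.02 for en, 9.69 to 11.04 for esg and 10.11 to 11.27 for cad, while Abd-B had no probe set of its own among those tested. Markers of other tissues were measured too. The 41 genes of a testis and sperm list had mean values of 4.91, 5.16, 5.58 and 4.59 in P6 males 1 to 4, against 4.14 to 4.35 in P6 females. Among the L3 males, replicate 2 stood apart with 5.14, against 4.13 to 4.39 in the other L3 males and 4.20 to 4.61 in L3 females. Fat body genes were bright and uneven in the larva. In L3 males 1 to 4, Fbp1 had 12.57, 7.59, 11.10 and 10.69, and Lsp2 had 12.89, 10.13, 12.59 and 12.04. L3 females had 9.39 to 11.60 for Fbp1 and 11.31 to 12.83 for Lsp2, so L3 male 2 was the lowest larval array for both. The part of fat body in the results was not tested.

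Between larva and prepupa, the sex difference changed for 99 probe sets of 97 genes, 0.725% of those tested (limma, Benjamini-Hochberg adjusted p under 0.05 over all 13647). In 42 probe sets of 40 genes (0.308%) it shifted toward females, and in 57 probe sets of as many genes (0.418%) toward males. The shift was at least 2-fold for 80 of the 99. Its size ran from 0.65 to 5.53 log2 units, with a median of 1.47, and the median interaction over all probe sets was -0.02. At an unadjusted p under 0.05, 1012 probe sets passed, 324 toward females and 688 toward males. With each array centred on its median, 36 shifted toward females and 31 toward males, a share toward females of 53.73% against 42.42%. Within a stage, 118 probe sets (0.865%) differed between the sexes at L3, 44 higher in females (0.322%) and 74 higher in males (0.542%). At P6, 607 did (4.45%), 150 higher in females (1.1%) and 457 higher in males (3.35%). After centring, 37.42% of the probe sets called at P6 were higher in females, against 24.71% before it.

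**Figure D1:**
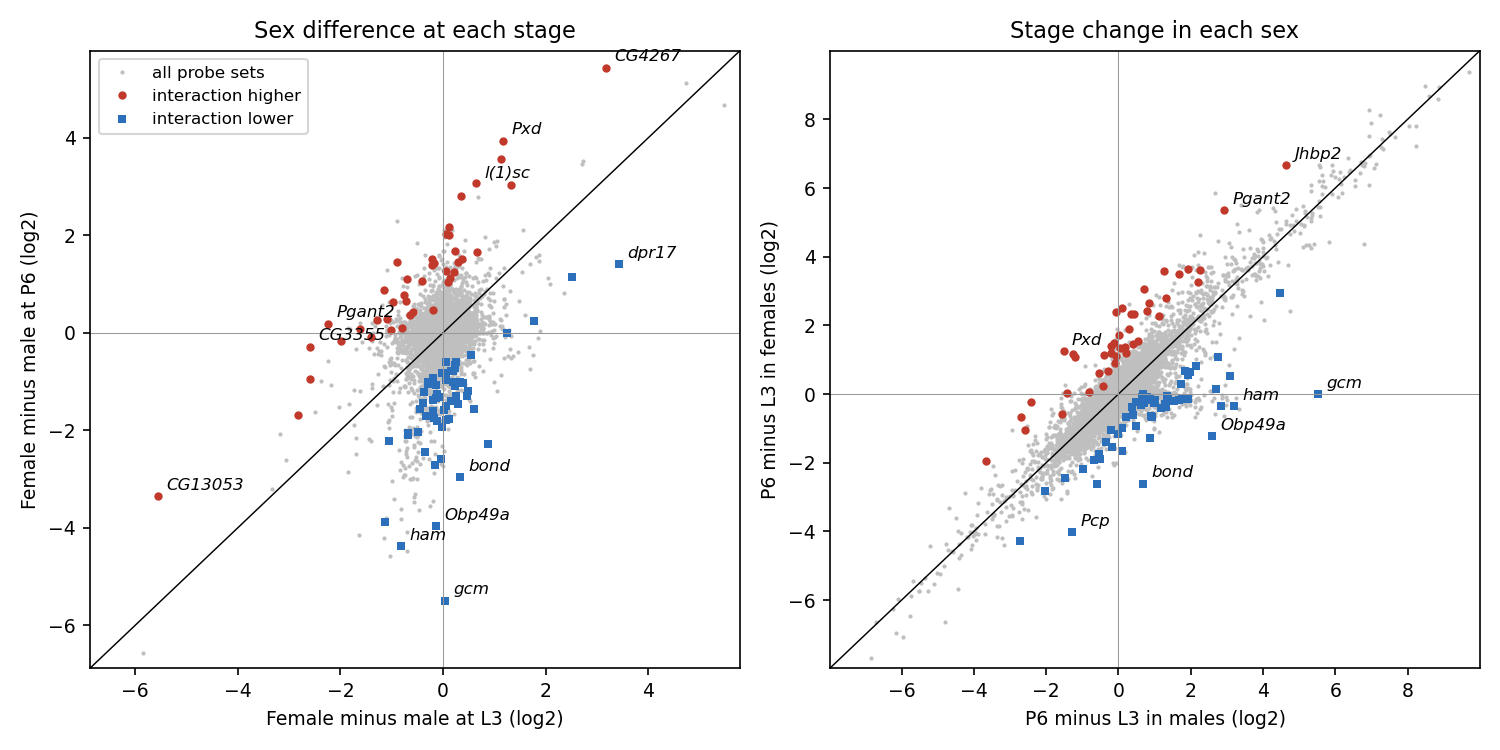
Left, the female minus male log2 difference at P6 against that at L3, and right, the P6 minus L3 log2 change in females against that in males, with 1 grey point per probe set, the diagonal as a line, and the 99 probe sets past the interaction threshold in red (42 toward females) or blue (57 toward males). Red points lie above the diagonal and blue points below it in both panels, and gcm lies at 0.04 at L3 and -5.49 at P6.

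Most of the 99 changes were differences that passed the test at P6 and not at L3. By the tests within each stage, the difference appeared in 73 probe sets, 51 of them higher in males and 22 higher in females. It was lost in 12, grew in 4, shrank in 5 and turned its sign in 1, and in 4 it passed at neither stage. The 4 P6 females lay entirely on one side of the 4 P6 males in 86 of the 99, against 10.4% of all probe sets. The L3 sexes were separated in this way in 36, against 3.14% of all. As the 99 were selected on these same values, such separation follows largely from the selection and is no added result.

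Stage changes within each sex showed which sex had moved. Such changes were common, with 4608 probe sets (33.8%) past the threshold in females and 4459 (32.7%) in males. In females 14.2% of all probe sets rose and 19.6% fell, and in males 15.2% rose and 17.4% fell. Among the 57 shifts toward males, 27 went with a rise that passed the test in males alone, 10 with a fall in females alone, 5 with a rise in both sexes, 8 with a fall in both and 7 with opposite changes. Among the 42 shifts toward females, 17 went with a rise in females alone, 4 with a fall in males alone, 13 with a rise in both, 4 with a fall in both and 4 with opposite changes. A change past the threshold in 1 sex alone does not show that the sexes differ, which the interaction tests. Over all probe sets the stage change in females correlated with that in males at r = 0.913, and the sex difference at L3 with that at P6 at r = 0.40 (13647 probe sets, which are not independent replicates).

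Of the shifts toward males, that of gcm had the smallest p and the largest size. The glial cells missing gene (gcm) encodes a GCM-domain transcription factor that directs glial and blood cell fates. Its log2 values were 2.60, 2.87, 3.23 and 3.10 in L3 females, 2.81, 2.96, 3.09 and 2.77 in L3 males, and 2.85, 2.69, 2.95 and 3.27 in P6 females. In P6 males they were 8.48, 8.56, 8.23 and 8.45, above every other array, of which the highest was 3.27, while the other groups overlapped. The interaction was -5.53 ± 0.33 (SE; adjusted p = 8.79e-10 in limma), the most extreme of all probe sets. Its neighbouring paralog gcm2, which acts with gcm in the same fates, had 6.08, 5.59, 6.13 and 5.84 in P6 males against 4.27 to 4.67 in P6 females, 4.51 to 4.75 in L3 females and 4.27 to 4.56 in L3 males. All 4 P6 males again lay above the other arrays, and the interaction was -1.74 ± 0.23 (adjusted p = 0.000174). Of the defining markers of glia and blood cells, the glial gene repo had means of 6.47 in P6 females and 6.27 in P6 males. The hemocyte gene Hml had 4.80 and 4.48, and the hemocyte gene NimC1 had 7.32 and 7.45. The lists of these cell types are given with the gene lists below.

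The gene snail (sna), a zinc-finger repressor of the mesoderm and of neural precursors, had 3.80, 3.59, 3.66 and 3.93 in L3 females, 3.75, 3.69, 3.63 and 4.03 in L3 males and 4.16, 3.62, 3.65 and 4.14 in P6 females. In P6 males it stood at 6.73, 6.42, 6.18 and 6.56, clear of the other 12 arrays. The interaction was -2.55 ± 0.22 (adjusted p = 1.06e-06). Hamlet (ham), a PRDM zinc-finger gene of sensory and olfactory neuron fate, had 7.89, 7.05, 8.54 and 7.94 in P6 males and 3.34 to 3.63 in P6 females. Larval discs had 3.65 to 4.23 in females and 3.60 to 5.51 in males, so the L3 sexes overlapped, and the interaction was -3.55 ± 0.52 (adjusted p = 0.000757). A second ham probe set shifted the same way by -0.64 ± 0.16 and did not pass (adjusted p = 0.0771). The twist gene, a mesoderm and myoblast marker, had means of 9.32 in P6 females and 8.86 in P6 males.

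The Pax gene paired (prd), which is required for the male accessory glands, had 5.43, 5.22, 4.71 and 5.01 in P6 males and 3.19 to 3.58 in the other 12 arrays. Its interaction was -1.87 ± 0.25 (adjusted p = 0.000209). The actin-binding villin-related gene quail (qua) had 7.73, 7.52, 7.08 and 7.63 in P6 males, 4.38 to 5.21 in P6 females and 3.89 to 5.50 in the larval discs, with an interaction of -2.56 ± 0.41 (adjusted p = 0.002). The level of qua in L3 male 2, 5.50, was the highest of the larval values. The gap gene hb, chosen after its values were seen, shifted by -1.55 ± 0.28 (adjusted p = 0.00637) from a low level, with means of 3.90 in P6 males and 2.40 to 2.68 in the other groups.

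**Figure D2:**
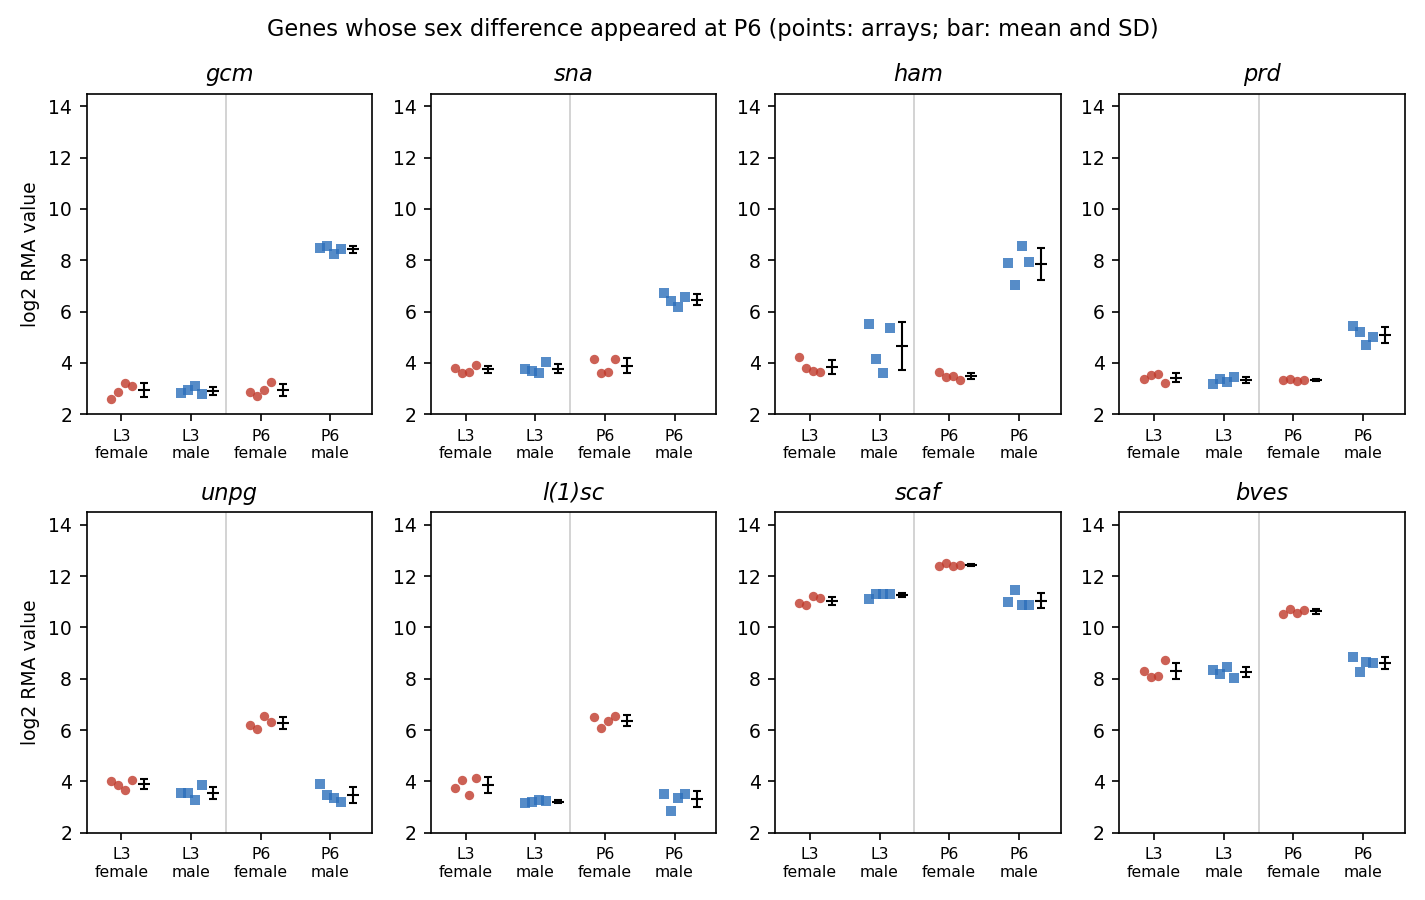
Log2 RMA value of each array (points) with the group mean and SD (bars) for genes whose sex difference appeared at P6. The gcm panel shows 4 P6 males between 8.23 and 8.56 and the other 12 arrays at or below 3.27, and the unpg panel shows the reverse, with P6 females between 6.03 and 6.56.

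In other genes that shifted toward males, the level fell in females or moved in opposite directions. The fatty acid elongase bond, which is required for male fertility, fell in females from a mean of 6.83 at L3 to 4.22 at P6. Its values were 4.32, 4.16, 4.06 and 4.34 in P6 females and 7.05, 7.18, 7.45 and 7.03 in P6 males, against 5.94 to 7.17 in the larval discs of both sexes. The interaction was -3.29 ± 0.37 (adjusted p = 2.79e-05). The P6 males ranked in the same order for bond as for the testis and sperm list, and the part of that tissue in the result was not tested.

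The neuropeptide precursor gene Nplp1 moved in opposite directions, falling by 1.28 in females and rising by 0.89 in males. Its values were 7.61, 7.56, 7.50 and 7.11 in P6 females against 9.14, 9.35, 8.72 and 8.84 in P6 males. The larval order was the reverse, 8.62 to 8.78 in females and 7.84 to 8.36 in males, without overlap, although that difference of 0.60 did not pass. The interaction was -2.17 ± 0.23 (adjusted p = 8.49e-06). Obp49a, of the odorant-binding protein family, had 8.79, 8.85, 8.47 and 8.84 in P6 males and 4.38 to 5.18 in P6 females. Larval levels were variable, 4.70 to 7.92 in females and 5.23 to 6.83 in males, and the interaction was -3.82 ± 0.66 (adjusted p = 0.00409).

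The pupal cuticle protein gene Pcp fell in both sexes, by 4.02 in females and by 1.28 in males. It had 9.49, 10.28, 10.29 and 9.32 in L3 females and 11.29, 11.14, 10.38 and 11.12 in L3 males, then 5.66, 5.62, 5.75 and 6.27 in P6 females and 9.26, 10.39, 9.34 and 9.81 in P6 males. The sexes did not overlap at either stage, and the gap widened, with an interaction of -2.74 ± 0.43 (adjusted p = 0.0014). The nuclear co-regulator gene dachshund (dac), which patterns the genital primordia in both sexes, had 9.44 to 10.05 in L3 females and 9.61 to 10.41 in L3 males. At P6 it stood at 7.75, 7.67, 7.84 and 8.04 in females and 9.55, 9.46, 9.45 and 9.70 in males, a shift of -1.37 ± 0.25 (adjusted p = 0.00751). The larval sexes overlapped for dac and the prepupal sexes did not.

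Its partner in retinal determination, eyes absent (eya), a phosphatase and transcriptional coactivator, was higher in males at both stages. It had 6.56 to 7.13 in L3 females, 7.46 to 8.11 in L3 males, 5.96, 5.25, 5.62 and 5.86 in P6 females and 7.94, 7.85, 7.87 and 7.91 in P6 males. The mean in males was 7.89 at both stages, and the level in females fell by 1.17. The interaction was -1.17 ± 0.23 (adjusted p = 0.0121), which did not pass in a fit to the 16 arrays alone (0.0547) or after centring (0.0591).

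Of the shifts toward females, that of unpg had the smallest p. The homeobox gene unplugged (unpg), known from the nervous system and the tracheae, had 6.19, 6.03, 6.56 and 6.33 in P6 females. It had 3.20 to 3.90 in P6 males, 3.66 to 4.07 in L3 females and 3.27 to 3.84 in L3 males, so the P6 females lay apart from the other 12 arrays. The interaction was 2.45 ± 0.23 (adjusted p = 1.75e-06). The proneural gene lethal of scute, l(1)sc, of the achaete-scute complex, had 6.50, 6.07, 6.34 and 6.55 in P6 females and 2.84 to 3.52 in P6 males. Larval females had 3.47 to 4.13 and larval males 3.14 to 3.29, and the interaction was 2.42 ± 0.28 (adjusted p = 3.46e-05).

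Atonal (ato), a proneural gene of chordotonal organs and photoreceptors, had 6.36, 6.56, 6.78 and 6.65 in P6 females and 3.38 to 3.68 in P6 males. At L3 it had 4.57, 5.96, 3.96 and 4.92 in females and 3.31 to 3.70 in males, so the sexes were already apart there. The difference grew by 1.72 ± 0.39 (adjusted p = 0.0375). The call held without L3 female 2, L3 male 1, L3 male 2, P6 female 1 or P6 male 4, and was lost without any 1 of the other 11 arrays, with adjusted p up to 0.0804. It was also lost in 5 other alternatives, namely the 16 arrays alone, centring, quantile normalization, a replicate block over all stages and leaving out both male arrays of highest testis list mean (up to 0.111). The achaete gene (ac), of the same complex as l(1)sc, had an interaction of 0.87 ± 0.36 that did not pass (adjusted p = 0.514).

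Scarface (scaf), a serine protease homologue of the JNK pathway in epithelial closure, had 12.41, 12.51, 12.40 and 12.42 in P6 females and 10.98, 11.47, 10.86 and 10.89 in P6 males. In the larva it had 10.88 to 11.21 in females and 11.13 to 11.32 in males, where the sexes overlapped. The interaction was 1.60 ± 0.16 (adjusted p = 4.77e-06). The Popeye-domain membrane protein gene bves had 10.52, 10.73, 10.57 and 10.67 in P6 females, 8.28 to 8.85 in P6 males and 8.01 to 8.73 in the larval discs, with an interaction of 1.97 ± 0.24 (adjusted p = 0.000105). The POU-domain gene ventral veins lacking (vvl), which acts in tracheae and neurons, rose in both sexes and more in females. Its values were 4.36 to 4.65 in L3 females, 5.18 to 5.28 in L3 males, 6.71 to 7.59 in P6 females and 5.70 to 6.43 in P6 males, so the sexes were separated at both stages in opposite orders. The interaction was 1.80 ± 0.26 (adjusted p = 0.000705), while a second vvl probe set had 0.30 and did not pass.

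Other larger shifts toward females were those of a water channel, a peroxidase and a hormone. The aquaporin gene Prip fell in males from a mean of 10.62 to 7.93 and in females from 10.74 to 10.09, with an interaction of 2.04 ± 0.34 (adjusted p = 0.00297). Its second, dimmer probe set had -0.21, and with the probe sets of a gene averaged Prip did not pass (0.137). Peroxidase (Pxd), known from the eggshell, moved in opposite directions, with 9.26, 9.26, 8.84 and 8.99 in P6 females and 5.92, 4.84, 4.93 and 4.91 in P6 males. The L3 values were 8.07, 7.91, 8.96 and 6.41 in females and 6.56 to 6.77 in males, and the sexes overlapped through L3 female 4. Both Pxd probe sets passed, at 2.77 ± 0.53 (adjusted p = 0.0105) and 2.42 ± 0.52 (0.0257), the second not without L3 male 4, P6 female 1, P6 female 2 or P6 male 2 (up to 0.0576).

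The relaxin-like disc hormone gene Ilp8, which delays metamorphosis when discs are damaged or slow, rose in both sexes. It had 5.29 to 5.87 in L3 females and 5.29 to 6.42 in L3 males, then 9.48, 9.77, 8.78 and 9.25 in P6 females and 7.64, 8.37, 8.14 and 7.10 in P6 males. The prepupal sexes did not overlap. The interaction of 1.72 ± 0.39 (adjusted p = 0.0381) passed without L3 male 2, P6 female 3, P6 male 2 or P6 male 3, but not without any 1 of the other 12 arrays, with adjusted p up to 0.099, and was lost in 5 other alternatives, with 0.111 in the fit to the 16 arrays alone.

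Differences of the larva that were lost by the prepupa were mostly male-high. In 10 of the 12 lost differences the larval level had been higher in males. Pgant2, an enzyme that starts O-linked glycosylation of secreted proteins, had 4.60, 4.53, 4.89 and 3.57 in L3 females and 6.43, 6.90, 6.74 and 6.48 in L3 males. At P6 it had 9.93, 10.07, 9.38 and 9.59 in females and 9.77, 10.43, 9.28 and 8.74 in males, so a gap of 2.24 in the larva gave way to overlap after a rise in both sexes. The interaction was 2.43 ± 0.39 (adjusted p = 0.00184), and a second, dim Pgant2 probe set had 0.22 and did not pass.

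Phk-3, of the chemosensory protein family, had 10.62, 9.51, 10.07 and 9.76 in L3 females and 12.61, 11.78, 11.68 and 11.86 in L3 males. At P6 it stood near the top of the scale in both sexes, at 13.39 to 13.57 in females and 13.58 to 13.76 in males. The interaction was 1.82 ± 0.30 (adjusted p = 0.00268). The gene CG3355 followed the same course, from 8.47 to 9.74 in L3 females and 11.27 to 12.43 in L3 males to 12.62 to 13.23 and 12.89 to 13.29 at P6, with 2.31 ± 0.40 (adjusted p = 0.00409). These P6 levels lie close to the highest value of the 16 arrays, 14.04, and the part of a ceiling in the 2 results was not tested. The peroxidase-family gene cysu rose from means of 6.05 in females and 7.15 in males to 9.67 and 9.39, with 1.38 ± 0.20 (adjusted p = 0.000757). The LIM-domain gene Lmpt instead fell in both sexes, from 8.75 and 9.38 to 8.18 and 7.82, with 0.99 ± 0.16 (adjusted p = 0.00233). Its other probe sets, with 0.44 and 0.19, did not pass, and Lmpt did not pass with its probe sets averaged (0.199).

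**Figure D3:**
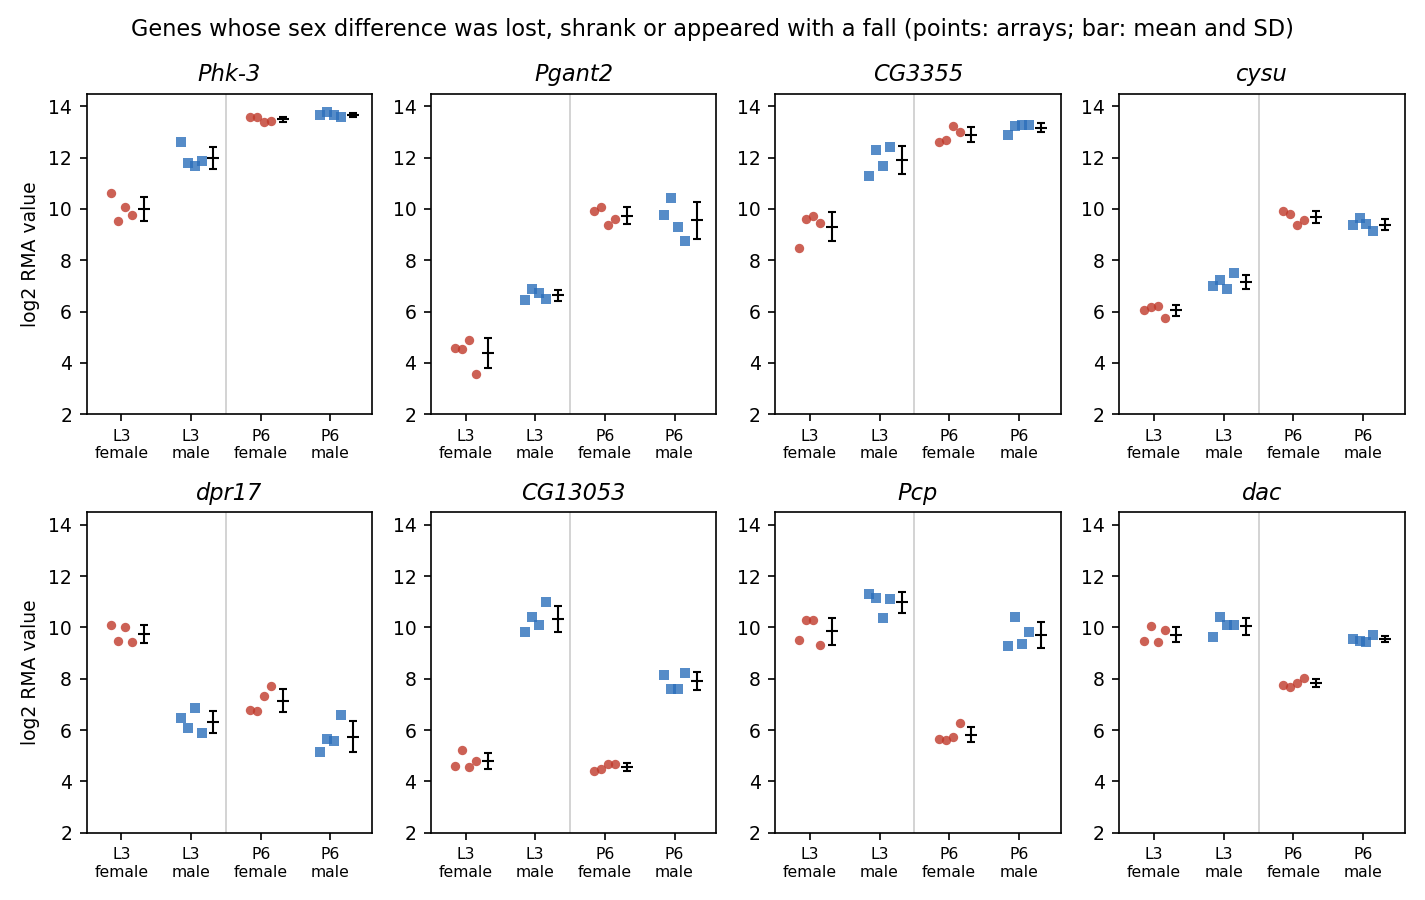
Log2 RMA value of each array (points) with the group mean and SD (bars) for genes whose sex difference was lost, shrank or appeared with a fall. In the Pgant2 panel the L3 sexes stand apart and the P6 sexes overlap, while in the Pcp panel the females fall to between 5.62 and 6.27 and the males stay at or above 9.26.

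By the tests within each stage, 4 differences that passed at both stages with the same sign grew and 5 shrank. The uncharacterised gene CG13053 had a male excess of 5.55 in the larva that shrank to 3.34. Its values were 4.56 to 5.23 in L3 females and 4.39 to 4.69 in P6 females, but 9.82, 10.40, 10.11 and 11.00 in L3 males and 8.16, 7.61, 7.61 and 8.24 in P6 males. The change was thus a fall in males, with an interaction of 2.20 ± 0.28 (adjusted p = 0.00015). The immunoglobulin-domain gene dpr17, of a family of neuronal surface proteins, was female-high, with 10.11, 9.46, 10.02 and 9.42 in L3 females, 5.88 to 6.87 in L3 males, 6.80, 6.75, 7.32 and 7.70 in P6 females and 5.14 to 6.58 in P6 males. The excess in females shrank from 3.43 to 1.40, a change of -2.02 ± 0.38 (adjusted p = 0.00874), which did not pass in the fit to the 16 arrays (0.0653).

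CG4267 grew from a female excess of 3.18 to one of 5.43, with 9.76, 10.02, 10.28 and 9.89 in P6 females and 4.43 to 4.66 in P6 males. The L3 males were spread, at 6.70, 6.02, 4.25 and 6.00. The interaction was 2.26 ± 0.46 (adjusted p = 0.0184; 0.0810 in the fit to the 16 arrays), and a second probe set of CG4267 had 0.79 and did not pass. The differences in CG4766 (1.15, adjusted p = 0.0364) and CG10184 (-1.36, 0.0406) shrank. The call of CG4766 was lost without any 1 of 10 arrays, and kept without L3 female 1, L3 female 2, L3 male 2, L3 male 3, P6 female 2 or P6 male 4. That of CG10184 was lost without any 1 of 9, and kept without L3 female 3, L3 male 1, L3 male 2, L3 male 4, P6 female 3, P6 male 3 or P6 male 4. In the other alternatives CG4766 was lost in 3 (adjusted p up to 0.145) and CG10184 in 6 (up to 0.111).

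Jhbp2, of the juvenile hormone binding protein family, was the only probe set whose sign turned with a passing difference at both stages. It rose in both sexes, from 5.32, 6.17, 6.24 and 5.85 in L3 females and 7.93, 6.72, 6.27 and 7.26 in L3 males to 12.47, 12.66, 12.58 and 12.51 in P6 females and 11.57, 11.48, 11.69 and 12.01 in P6 males. The males lay above the females in the larva and below them in the prepupa, without overlap at either stage. The interaction was 2.02 ± 0.35 (adjusted p = 0.00462).

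Among uncharacterised genes, the calls of several of the largest shifts did not hold in every alternative. CG2962 had 8.38, 9.63, 7.32 and 5.63 in P6 males against 5.32 to 5.58 in P6 females, an interaction of -3.16 (adjusted p = 0.0391). The call held without L3 female 3, L3 male 1, L3 male 2, L3 male 4, P6 male 2 or P6 male 4, and was lost without any 1 of the other 10 arrays. CG17470 (-2.08, adjusted p = 0.0426) passed only without L3 male 2 or P6 male 4 when arrays were left out, its P6 males lying between 5.46 and 7.90. Of the other alternatives, 5 ended the call of CG2962 (up to 0.205) and 5 that of CG17470 (up to 0.140). CG14488 (-1.91, 0.0118) had 3.96, 4.12, 5.04 and 5.45 in P6 males and at most 3.13 in the other arrays of the contrast, and had an adjusted p of 0.0523 with arrays weighted by stage. CG5002 shifted toward females (2.35, 0.0197) and did not pass without L3 male 3 (0.0503) or in the fit to the 16 arrays (0.116).

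Further genes past the threshold, chosen after their values were seen from those that passed in each of 16 fits that left out 1 array, are given by role. The thrombospondin gene Tsp, of tendon and matrix attachment, shifted toward females on both of its probe sets, by 1.15 ± 0.15 (adjusted p = 0.000259) on the one with the smaller p. On that probe set P6 females had 9.35 to 9.38 and P6 males 7.74 to 8.12. The Bar homeobox gene B-H1 fell in males, from a mean of 7.31 to 5.88, and stayed at 7.54 and 7.56 in females (1.45 ± 0.22, adjusted p = 0.00126). Its paralog B-H2, which did not pass in every such fit, had 1.16. The neighbouring immunoglobulin genes beat-IIa and beat-IIb rose in females, with interactions of 1.62 ± 0.33 and 1.19 ± 0.24, and the metalloprotease inhibitor gene Timp had 1.38 ± 0.26. Another Timp probe set had 1.05 and did not pass (adjusted p = 0.114).

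Toward males, the cuticle protein gene Cpr35B rose in both sexes and more in males, to 8.20 to 8.45 against 6.17 to 6.78 (-1.68 ± 0.23, adjusted p = 0.000342). Osi1, of the Osiris family of cuticle-forming cells, had 7.14 to 7.68 in P6 males and 5.23 to 5.54 in P6 females (-1.43 ± 0.28, adjusted p = 0.0122). The polarity gene baz, the fly Par-3, had a small but even shift of -0.72 ± 0.13 (adjusted p = 0.00608), with P6 males at 7.54 to 7.99 and P6 females at 6.70 to 6.81. CG11275 fell in both sexes and further in females, to 6.20 to 6.32 against 7.30 to 7.74 (-1.56 ± 0.22). In all, 58 of the 99 probe sets, 28 toward females and 30 toward males, passed in each of the 16 fits, and none changed its sign in any.

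The P20 arrays, which the contrast did not use, showed how the differences stood later in the pupa. At P20, 307 probe sets (2.25%) differed between the sexes, with a female excess in 0.703% of all and a male excess in 1.55%. Of the 51 differences that had appeared with a male excess at P6, 18 passed at P20 in the same direction and none in the other. Of the 22 that had appeared with a female excess, 4 passed in the same direction and 2, CG8483 and Timp, in the other. Of the 12 lost differences, 4 passed at P20 with the sign they had at L3, namely Phk-3, CG11380, l(2)k05911 and CG6739, and none against it.

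Genes with the largest shifts took different courses after P6. The P20 values of gcm were 5.41, 5.21, 5.01 and 6.59 in females and 5.39, 5.54, 5.74 and 5.45 in males, so the sexes overlapped at a level between those of the 2 sexes at P6. The difference in unpg was 0.58 (adjusted p = 0.067) and that in scaf was -0.30 (0.3), and neither passed. In sna a male excess of 0.91 passed (adjusted p = 0.00101), with 4.05 to 4.67 in females and 4.95 to 5.31 in males. In prd a male excess passed at P20 too, with 6.12 to 6.93 in males and 3.30 to 4.01 in females (adjusted p = 8.72e-11). The difference in Phk-3, which did not pass at P6, passed at P20 at -2.03 (adjusted p = 1.12e-06). That in dpr17, which had shrunk and still passed at P6, was 4.15 (4.84e-10). Jhbp2 had a female excess of 2.30 (1.78e-06). CG13053 stood at means of 13.24 in females and 13.32 in males at P20, a difference of -0.08 that did not pass. Changes between P6 and P20 were not tested.

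**Figure D4:**
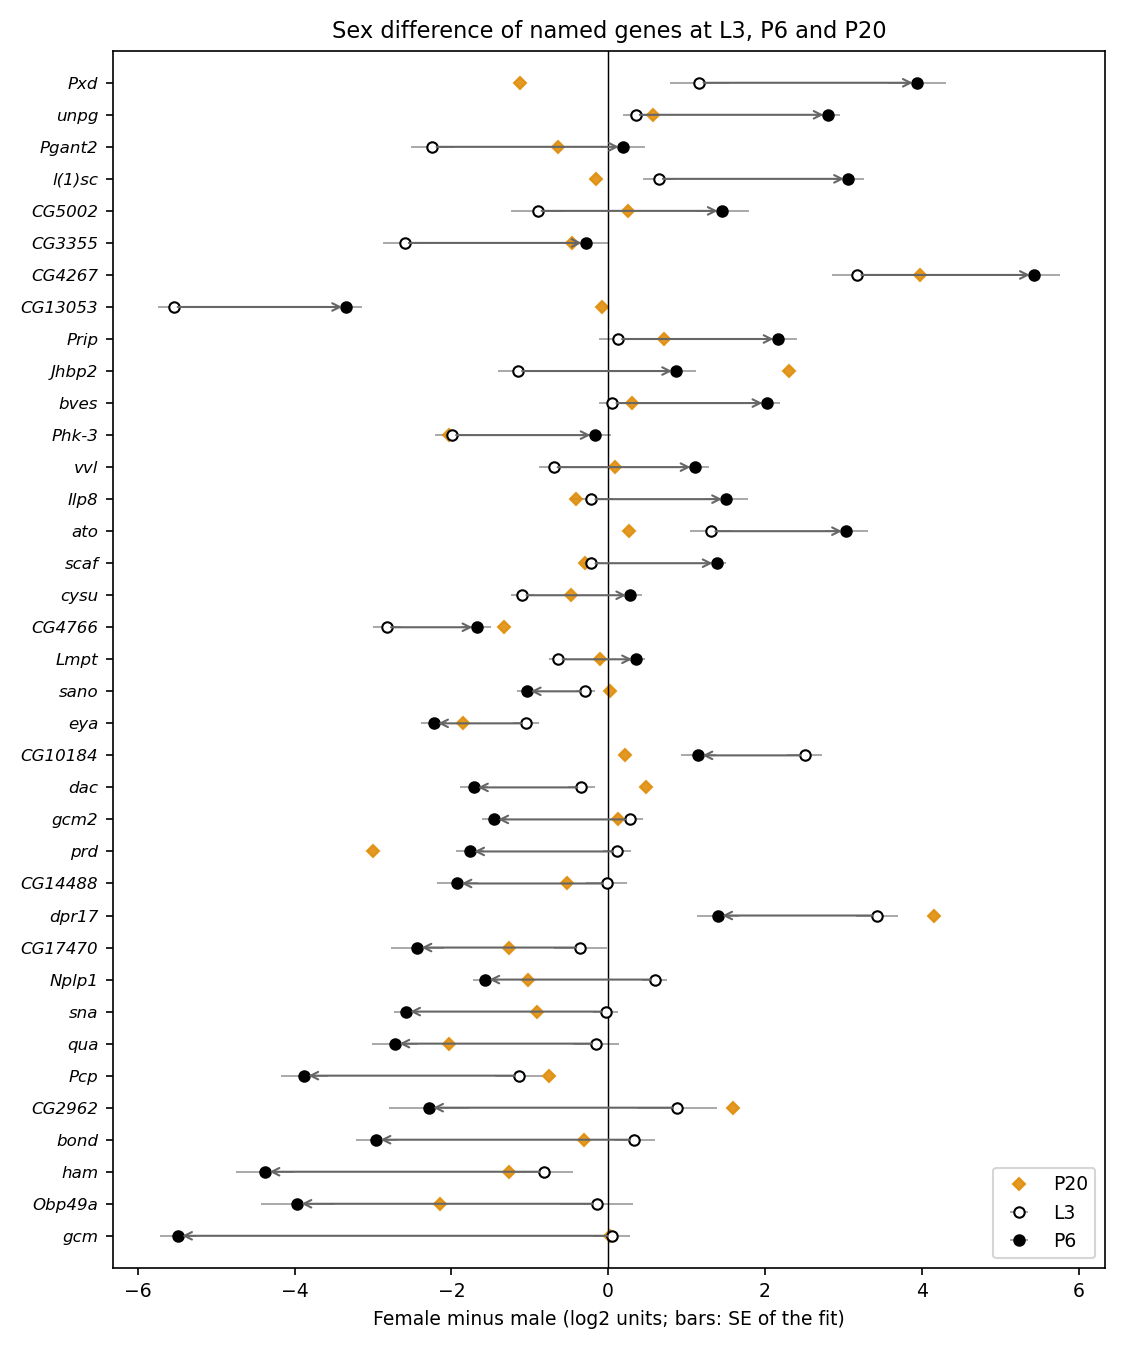
Female minus male log2 difference of the named genes past the threshold, with an open circle for L3, a filled circle for P6 (bars, SE of the fit), an arrow from L3 to P6 and a diamond for P20. The diamond of gcm lies back near 0, that of prd lies beyond its P6 value, and that of Phk-3 lies at its L3 value.

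Some regulators known for sex differences in this disc were read whatever their values. Of these, dac and eya passed, as given above, and those given next did not. The female-high probe set of dsx had 10.90 to 11.22 in L3 females and 10.93 to 11.10 in P6 females. It had 5.80, 5.75, 5.14 and 5.60 in L3 males and 6.68, 6.32, 6.07 and 6.40 in P6 males, where the higher male values at P6 gave an interaction of -0.81 ± 0.20 that did not pass (adjusted p = 0.0575). It passed in 3 alternatives, with a replicate block over all stages, with dim probe sets left out and without the L3 and P6 male arrays of highest testis list mean (down to 0.0219), and also without L3 male 1, L3 male 2 or P6 male 3 alone. The other dsx probe set had 0.06. The interaction was -0.26 for the splicing regulator tra and 0.28 for Sxl, and -0.01 ± 0.23 for msl-2, which encodes the male-limiting subunit of the dosage compensation complex. None of these 3 passed. Another Sxl probe set, female-high by 1.86 at L3 and 1.46 at P6, had -0.40, and a further one had 0.0002. Neither passed.

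Of the transcription factors, Drop (Dr) was higher in males by several log2 units at both stages, with 10.60 to 11.00 in L3 males and 10.87 to 11.33 in P6 males against 3.73 to 5.84 in L3 females and 3.32 to 5.66 in P6 females. Its interaction was -0.72 ± 0.59. The Runx gene lozenge (lz), required for the spermathecae of females, had 9.18 to 9.48 and 9.63 to 9.93 in females of the 2 stages and 3.97 to 5.15 and 3.48 to 5.72 in males (0.39 ± 0.52). The Pax gene Poxn had 0.12 ± 0.33, and the homeobox gene en had -0.21. The Pax-like gene eyg (0.76 ± 0.27, adjusted p = 0.345), the LIM-homeobox gene ap (-0.83 ± 0.31, 0.37) and the bric-a-brac genes bab1 (-0.29) and bab2 (0.40) did not pass either. A miss of the threshold does not show equal differences at the 2 stages: for Dr and lz the error alone spans shifts of more than 1 log2 unit.

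FGF signalling is known to recruit mesodermal cells that express the receptor btl into the male disc. The ligand bnl had 4.43, 5.09, 4.01 and 4.40 in L3 females, 7.30, 7.91, 7.61 and 7.84 in L3 males, 5.39, 5.03, 4.83 and 4.81 in P6 females and 6.99, 6.93, 7.29 and 7.14 in P6 males. The sexes were apart at both stages on this probe set, and the interaction of 1.11 ± 0.27 did not pass (adjusted p = 0.058). A brighter bnl probe set, with means of 8.62 in L3 males and 8.83 in P6 males, had 0.46 (adjusted p = 0.955). A further bnl probe set had -0.07, so the size of the shift differed between probe sets. The bnl receptor btl had 0.57 (0.58) and the other FGF receptor, htl, had 0.28 (0.824).

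Gene lists of 23 pathways and cell types were set beside all genes, for which the median interaction was -0.03. Of 31 genes of genital disc patterning, unpg shifted toward females and prd, eya and dac toward males, and 27 did not pass (median -0.17). At an unadjusted p under 0.05 in limma, 4 of the 31 lay toward females and 8 toward males. Among the members that did not pass, mirr had -1.18 ± 0.31 (adjusted p = 0.0911) and salm -0.71 (0.396). Of 18 genes of sensory organ and bristle precursors, l(1)sc and ato shifted toward females and ham toward males (median 0.28), while the proneural co-factor sens had 0.87 (0.394). Unadjusted, 4 lay toward females and 1 toward males. The trachea list of 14 genes had vvl toward females and the planar organisation gene sano toward males (median 0.28). Unadjusted, 5 of the 14 lay toward females and 2 toward males. The sano value, -0.75 with an adjusted p of 0.0421, passed only without L3 female 2, L3 female 4, L3 male 2 or P6 male 2 when arrays were left out, and was lost in 7 other alternatives (up to 0.282). Of 31 cuticle and apical matrix genes only Pcp passed (median 0.09), and unadjusted 3 lay toward females and 3 toward males.

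Both the hemocyte list of 18 genes (median 0.03) and the neuron and glia list of 15 (median -0.03) held gcm and gcm2 as the members that passed, and no other. An unadjusted p under 0.05 was found for 4 hemocyte genes, all with values toward males, the others being Ppn (-0.66, adjusted p = 0.252) and 1 probe set of Pxn (-0.95, 0.294). Between the sexes at P6, 5 of the 18 passed, gcm and gcm2 among them, against 587 of all 11982 genes. The mean level of the neuron and glia list was 6.50 to 6.75 in P6 males and 6.09 to 6.28 in P6 females, while its defining gene elav had means of 7.53 and 7.47. All P6 males thus lay above all P6 females on this list. Its mean includes gcm and gcm2 themselves, so it is not a measure separate from the gcm result. The median female minus male difference of the listed genes at P6 was 0.02. The part of these cell types in the gcm result was not tested. The hemocyte list had a mean of 6.98 in P6 males and 6.90 in P6 females, where arrays ran from 6.71 to 7.12. That mean includes gcm and gcm2 as well, while the median female minus male difference of its genes at P6 was 0.12, toward females.

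In 16 of the 23 lists no member passed. In the Notch pathway list of 13 genes (median 0.28), 4 passed at an unadjusted p, all toward females, and all are Enhancer of split genes, which Notch activates. The largest of them, E(spl)m5-HLH, had 1.67 ± 0.45 (adjusted p = 0.108), with means of 5.26 in L3 females, 7.50 in L3 males, 6.81 in P6 females and 7.38 in P6 males. The ecdysone response list of 22 genes had 3 at an unadjusted p, all toward females (median 0.20), of which ImpL1 had 0.74 (adjusted p = 0.17). The lists of Hedgehog, Wnt and Dpp signalling (16 genes, median 0.09), EGF receptor signalling (7, 0.04), sex determination and dosage compensation (14, 0.00), cell adhesion (18, 0.08) and cell death (10, -0.06) held at most 2 each at an unadjusted p. The cell division list of 17 genes had a median of -0.21 and 2 genes, aurB and Mcm3, at an unadjusted p toward males. For comparison, 7.416% of all probe sets had an unadjusted p under 0.05.

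Fat body (11 genes, median -0.10), myoblast and muscle (19, 0.22), salivary gland (15, 0.27), gut (15, 0.10), ovary and germline (10, 0.01) and innate immunity (11, 0.65) had no member past the threshold either. The innate immunity list stood at 5.89 to 8.50 in P6 females and 5.83 to 6.08 in P6 males, and its gene Drs, an antifungal peptide, had 2.38 (adjusted p = 0.505).

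Sperm genes differed widely between male arrays of the same group. In the testis and sperm list, none of 41 genes passed and 10 had an unadjusted p under 0.05, all toward males, with a median interaction of -0.41. Mst77F, a sperm chromatin protein, had 7.85, 9.14, 10.21 and 6.38 in P6 males, 3.33 to 5.40 in P6 females and 3.91 to 4.51 in L3 females. In L3 males it had 5.11, 7.69, 3.99 and 4.86. The interaction was -3.06 ± 0.98 (adjusted p = 0.239). Ocnus (ocn), a testis protein, gave -3.38 ± 1.23 (0.358), with 7.14 in L3 male 2 and 2.82 to 3.93 in the other L3 males. Both genes were highest in P6 male 3 and lowest in P6 male 4 among P6 males, and stood high in L3 male 2.

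Leaving out the arrays that stood apart on this list changed the count of shifts toward males. Without L3 male 2, 191 probe sets passed (1.4%), 50 toward females and 141 toward males (1.03%), with 96 of the 99 kept. Of the 85 gained toward males, 53 ranked the P6 males in the order of the testis list, as did 4.528% of all probe sets. For 76 the highest larval value was in L3 male 2, against 11.39% of all. That count follows largely from the selection, since leaving out a high L3 male value moves the interaction toward males. In the same fit 5 genes of the list passed, among them Mst77F and ocn. Without P6 male 4, 163 passed (1.19%), 41 toward females and 122 toward males (0.894%), with 92 kept. Without P6 male 3, the array with the highest testis list mean, 76 passed (0.557%), with 69 kept. Without both L3 male 2 and P6 male 3, 37 passed toward females and 103 toward males.

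**Figure D5:**
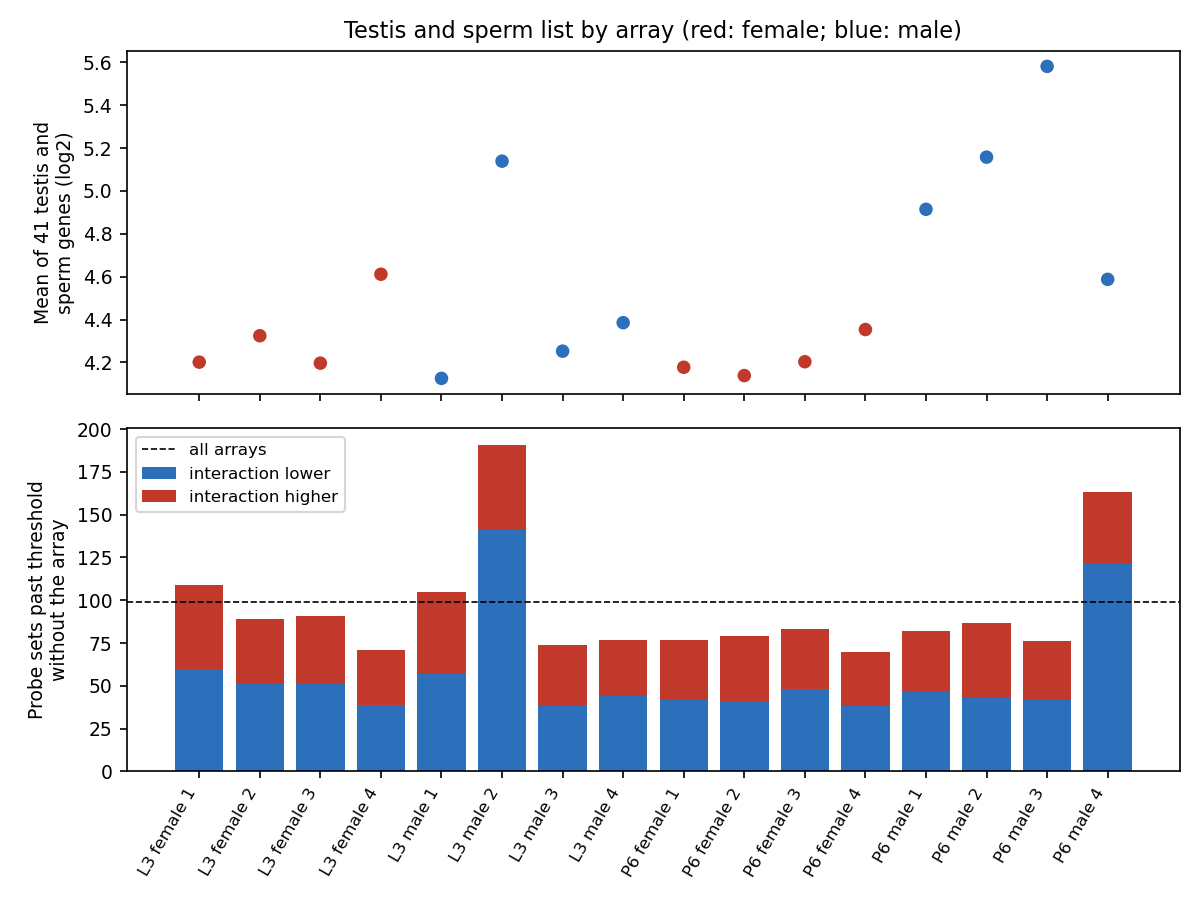
Top, mean log2 RMA value of the 41 genes of the testis and sperm list in each array of L3 and P6 (red, female; blue, male), and bottom, bars for the probe sets past the interaction threshold when that array was left out, stacked by direction, with a dashed line at 99. L3 male 2 lies at 5.14 and its removal gives 191, and P6 male 4, the lowest P6 male at 4.59, gives 163.

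Among the 57 shifts toward males, 8 ranked the P6 males in the order of the testis list, 14.04% against 4.528% of all probe sets, and none of the 42 shifts toward females did. These were bond, CG10862, CG5139, CG11380, CG30412, CG13110, CG4021 and CG42733. L3 male 2 was the highest larval array in 15 of the 57, 26.32% against 11.39% of all. The leading genes gcm, gcm2, sna, ham, prd, qua, Obp49a and Nplp1 were not among the 8, and each passed in every fit that left out 1 array. Every P6 male lay above every P6 female on the testis list mean, so leaving out 1 array does not remove that difference. The part of testis tissue in these genes was not tested.

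The 97 genes lay on all large chromosome arms. On the X were 16 of them, 16.49% against 15.75% of all genes with a known chromosome, while 29 lay on 2L, 29.90% against 18.54%, and 10 on 3L, 10.31% against 19.71%. Arm 2R held 17 and 3R held 25, and none lay on chromosome 4. The neighbours gcm and gcm2, and beat-IIa and beat-IIb, count apart here. These shares are descriptions of the called genes.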

How the data were processed

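RNA of 24 samples was measured on Affymetrix arrays by the authors from 20 ng of total RNA each, per the labels' protocols. Each deposited value is the log2 signal of a probe set, computed by the authors using RMA, per the submitters' processing notes. The sources used here give no RMA version, settings or genome build. Signal over background is unknown, as no detection calls were used. Of 18952 probe sets, 183 controls, 402 with several genes and 4720 with no gene listed were left out. Of the remainder, 13544 matched a Release 6 gene table and no symbol differed.

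One mean per group was fitted to all 24 arrays with limma 3.58.1 in R 4.3.3 (lmFit and eBayes, 18 residual degrees of freedom), with no filter on low values and no covariate, as the labels name no batch. Tests are two-sided, with Benjamini-Hochberg adjustment over 13647 probe sets and a threshold of 0.05. Errors printed with ± are SE of the fit. Precision is limited by the number of arrays. The procedure was tested on simulated data.

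Lists were read gene by gene, as counts and medians beside all genes. The members and the lists were chosen with earlier results of these data known. Named genes are, of those past the threshold, the 10 with the largest shift either way, CG and CR numbers aside, the 3 largest of those numbers, the 6 and, per pattern, the 4 with the smallest p, up to 4 per list, and a panel of 25 genes. A gene with several probe sets is named by that with the smallest p. Alternatives covered the arrays in the fit, scaling, variance model, replicate block, dim probe sets, choice of probe set, the testis list and each array left out in turn. Male arrays with the highest testis list mean were left out together after the data had been seen.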

Additional observations from a re-analysis of the deposited data

Results flagged for a closer look

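The sex difference itself differed between the stages for 99 probe sets, tested as the interaction. The 6 genes with the smallest p were gcm (-5.53), sna (-2.55), unpg (2.45), scaf (1.60), Nplp1 (-2.17) and bond (-3.29), in log2 units.

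Single arrays lay far from the other 3 of their group in 9 of 220 groups of 4 checked (55 probe sets of named genes, 4 groups each), where chance gives about 1 in 20. Most of these gaps were small in log2 units. They were CG14488 in L3 female 1 (2.63, others 2.91 to 2.93), CG3355 in P6 male 1 (12.89, others 13.24 to 13.29) and en in P6 male 2 (9.83, others 9.90). The same held for htl in P6 female 3 (9.93, others 9.72 to 9.75), msl-2 in L3 male 1 (9.53, others 9.37 to 9.39) and scaf in L3 male 1 (11.13, others 11.30 to 11.32). Larger gaps were those of Pxd in P6 male 1 (5.92, others 4.84 to 4.93) and of ocn in L3 female 4 (5.19, others 2.78 to 3.05) and P6 female 4 (5.06, others 2.73 to 2.97). Both female arrays with a high ocn value also had the highest testis list mean of their group.

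Outside the comparisons, 5 of 5122 probe sets with several genes or none listed passed the same test, 4 toward females and 1 toward males, and none of the 5 has a gene listed. The largest was 1637311_at at -2.96 (adjusted p = 0.00582), with means of 10.11 in P6 males and 5.06 to 6.22 in the other groups. Probe sets 1634054_at (1.74) and 1637755_at (2.14) were higher in P6 females, and in 1625940_s_at (1.57) and 1626235_at (1.91) a male excess of the larva was smaller at P6.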

How the results depend on the processing

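No named gene that passed changed the sign of its interaction under any alternative. Of those that did not pass, with all replicates or without both male arrays, dsx (-0.97 to 0.06), Poxn (-0.07 to 0.26), Sxl (-0.04 to 0.30) and msl-2 (-0.01 to 0.02) changed sign, dsx where its other probe set stood for the gene, and msl-2 and Poxn also when 1 array was left out. The 99 calls (42 toward females, 57 toward males) became 55 (27 and 28) with the 16 arrays alone, 62 (31 toward males) with arrays weighted by stage, and 179 (77 and 102) with a replicate block for each number within a stage. Centring gave 31 toward males, and leaving out both male arrays with the highest testis list mean gave 103. Leaving out 1 array gave 70 to 191 calls, 32 to 50 toward females and 38 to 141 toward males. The other alternatives were within 1.5 times. The causes were not tested, although a fit to 16 arrays has fewer samples for the spread. Of the 97 genes, 51 passed again with 16 arrays, 60 after centring, 59 with weights and 82 with the block within stages.

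At P6, calls higher in males fell from 457 to 303 with 16 arrays and to 291 after centring. Array weights gave 73 calls at L3 (24 and 49) and 916 at P6 (242 higher in females). The block within stages gave 258 at L3 (109 and 149), 243 higher in females at P6 and 158 higher in females at P20. Centring moved the median stage change in males from -0.04 to -0.16. P20 could not be tested with 16 arrays, nor the stage changes within each sex with a block within stages.

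Same-numbered female and male arrays deviated together at L3 with r of 0.69, 0.36, 0.32 and 0.08 and at P6 with 0.27, 0.07, 0.02 and 0.24. Replicates 1 to 3 of L3 and 1 and 4 of P6 correlated best with their own number, and the others did not. These values do not settle whether the numbers are pairs. The main fit did not take them as pairs, and the block within stages, given above, did. With the block over all stages, 94 probe sets passed. Of named genes that did not pass, dsx passed in 3 alternatives (down to 0.0219), bnl with the block within stages (0.0358) and Mst77F without both male arrays (0.0421). Leaving out 1 array let bnl pass (L3 female 2 or L3 male 1), Mst77F (L3 male 2 or P6 male 4), ocn (L3 male 2) and dsx (L3 male 1, L3 male 2 or P6 male 3). Signal over background is unknown, so dim genes such as hb and CG14488 rest on values whose floor is unknown.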
